A study of Mus musculus with 8 samples.

Results

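Interferon-stimulated genes are the messages that cells raise when interferon reaches them. The 47 examined here were chosen by name with earlier results of these data known, though by a rule that used no measured value, and they are 47 of the 56691 gene IDs in the deposited table. They were sorted by role into 31 antiviral and regulatory effectors known from type I interferon responses, 6 GTPases known from interferon-gamma responses, 5 interferon regulatory factors, and 5 nucleic acid sensors with their helper Trim25. All 47 were found in the table, and all 47 passed the filter on low counts. They were measured in ribosome-associated RNA of the ventral tegmental area, a midbrain region rich in dopamine neurons. Ogt knockdown mice (genotype Ogt flox+/Y, replicates 2, 3, 4 and 5) were compared with control mice (genotype Ogt flox-/Y, replicates 3, 4, 5 and 6). Both genotypes received the same pair of adeno-associated viruses in that region. AAV-TH-Cre carries Cre recombinase under the tyrosine hydroxylase promoter, and AAV-Flex-NBL10 carries an HA-tagged ribosome-binding fusion that Cre switches on, through which the RNA was enriched. The control libraries therefore also carry Cre and both viruses, and no library without virus was compared. The labels state no age. The labels do not state that each replicate is its own animal. The p-values therefore cover the variation among these 8 libraries, part or all of which may be technical.

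Interferons are secreted proteins of several types. Type I interferons (Ifnb1 and the Ifna genes) signal through a receptor made of Ifnar1 and Ifnar2, and the kinases Jak1 and Tyk2 then activate a complex that holds Stat2 and Irf9 and binds interferon-stimulated response elements in DNA. Interferon-gamma (Ifng) signals through Ifngr1 and Ifngr2 and through Jak1 and Jak2, and leads to binding at gamma-activated sites. Many genes answer to both types, so a class name here is a habit of the field and not a measured origin. In the brain, microglia, astrocytes, endothelial cells and neurons can all respond to interferon, and several of these genes, Irf8 among them, are known mostly from microglia.

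Libraries held 94485291, 55397971, 72018591 and 81447176 counted reads in the knockdown group and 76143832, 49802305, 129801354 and 147747191 in the control group. Levels are given as CPM, counts scaled to the size of each library with TMM factors, and fold changes are knockdown over control. Ogt, the targeted gene, had 74.4, 47.2, 41.7 and 36.0 CPM in knockdown libraries, against 159, 118, 118 and 108 CPM in control libraries, and its log2 fold change was -1.34 (SE 0.23, edgeR adjusted p = 0.00243). The groups did not overlap for Ogt. Th, the tyrosine hydroxylase gene that marks dopamine neurons, was present in all 8 libraries, at 180.1 to 282 CPM in knockdown libraries and 435 to 1241 CPM in control libraries. Gfap, which marks astrocytes, had 5372 to 8401 CPM in knockdown libraries and 237 to 1860.1 CPM in control libraries, so the enriched RNA holds messages of other cells as well. Control replicate 3 stands apart from the other controls: its endothelial markers summed to 1650 CPM and its mural markers to 621 CPM, where the other 3 controls had at most 268 and 16.95 CPM. Calls, and counts of genes that passed, are given both ways where they change without it. Promoter shares by call and counts of groups apart are given with all 8 libraries only.

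Interferon-stimulated genes were higher in knockdown libraries. Of the 47, 26 passed the test as higher and 0 as lower (edgeR quasi-likelihood F test, adjusted p under 0.05 over the 19912 genes tested), where 13.4% of all genes tested passed as higher, 15.1% as lower and 28.5% in either direction. The log2 fold change was positive for 45 of the 47, against 50.1% of all genes, and Irf3 and Adar were the other two. The median log2 fold change of the 47 was 1.16, against 0.002 over all genes tested. Every knockdown library was above every control library for 31 of the 47, a pattern that 17.1% of all genes tested showed. Among the 26 that passed, the fold ranged between 1.60 for Samhd1 and 10.7 for Irf8, and 24 of them had at least a 2-fold difference. Without control replicate 3 the count was 34 of 47, with 18.1% of all genes higher, and the median was 1.05. The same 26 were called again, and the 8 added calls were all effectors. Without both libraries numbered 3 the count was 40, with 23.5% of all genes higher.

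**Figure D1:**
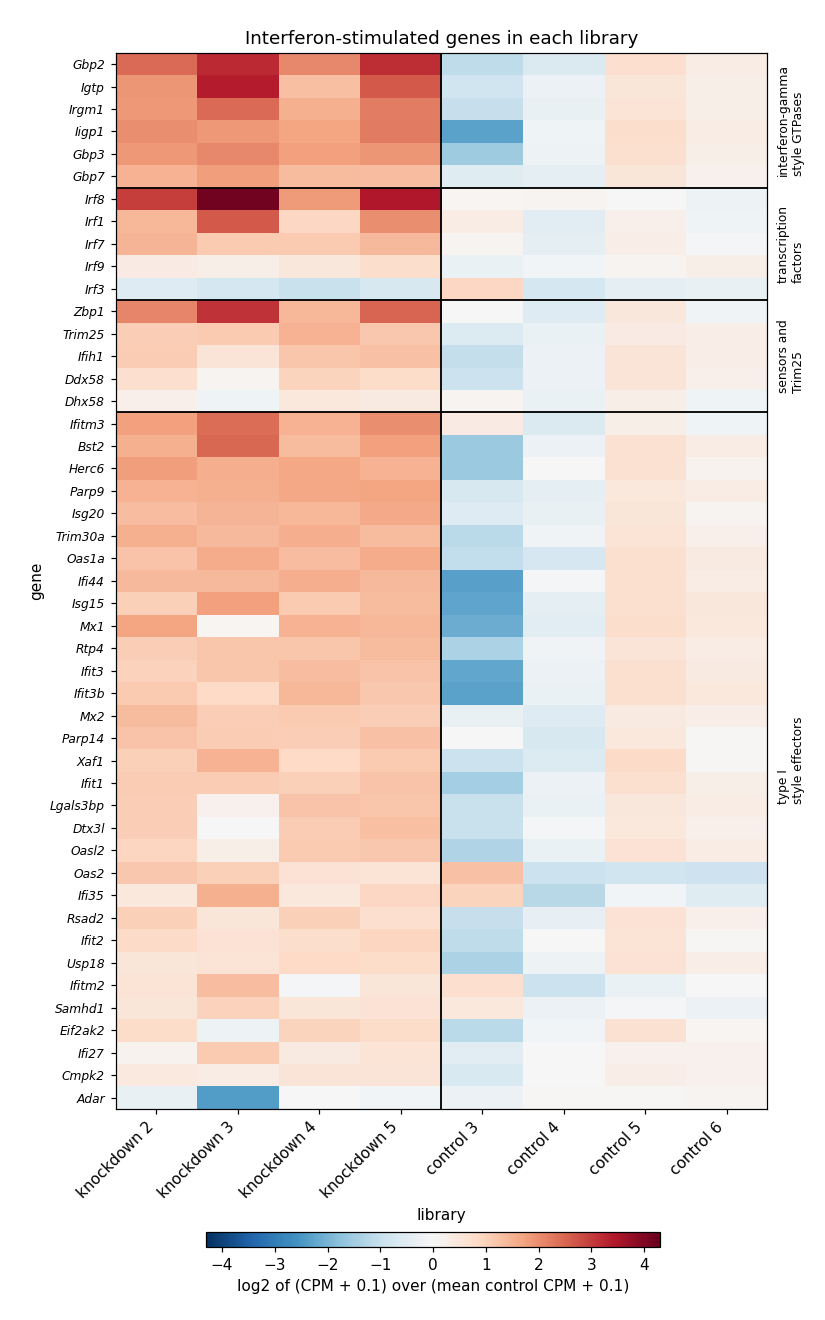
Level of each of the 47 genes in each of the 8 libraries, as log2 of the CPM over the mean control CPM (0.1 CPM added to both), with knockdown libraries left of the line and control libraries right of it, and genes ordered by class and fold. The knockdown columns are mostly red, control replicate 3 is the lowest control for 34 of the 47 genes, and Irf3 and Adar at the foot of their classes run the other way.

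All 6 interferon-gamma style GTPases rose, where 13.4% of all genes tested did. These proteins (guanylate-binding proteins, Gbp, and immunity-related GTPases, Irg) coat and break the vacuoles of intracellular pathogens. Gbp2 (ENSMUSG00000028270.13) had 162, 282, 127 and 275 CPM in knockdown libraries, against 14.1, 19.6, 49.4 and 37.4 CPM in control libraries. It rose 7.01-fold (log2 fold change 2.81, SE 0.43, edgeR adjusted p = 0.00198), and its lowest knockdown library stood more than 2-fold above its highest control. Igtp, also known as Irgm3, had 139.8, 391, 93.2 and 235 CPM in knockdown libraries, against 21.03, 31.4, 53.9 and 44.9 CPM in control libraries. Irgm1, a regulator of the other Irg proteins, had 245, 364, 195 and 316 CPM in knockdown libraries, against 34.2, 54.9, 102 and 80.1 CPM in control libraries. In both genes knockdown replicate 3 was the highest and replicate 4 the lowest of the knockdown group, and the groups did not overlap. Igtp rose 5.67-fold (log2 fold change 2.50, SE 0.46, edgeR adjusted p = 0.00445) and Irgm1 rose 4.12-fold (log2 fold change 2.04, SE 0.33, edgeR adjusted p = 0.00203).

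Gbp3 and Gbp7 lie beside Gbp2. Gbp3 had 268, 308, 249 and 272 CPM in knockdown libraries, against 25.7, 63.5, 118 and 87.2 CPM in control libraries. Gbp7 had 48.6, 59.1, 43.6 and 43.5 CPM in knockdown libraries, against 11.9, 12.6, 24.6 and 19.2 CPM in control libraries. Knockdown libraries were close to each other for both genes, and neither gene overlapped between groups. Gbp3 rose 3.72-fold and Gbp7 2.85-fold (edgeR adjusted p = 0.00585 and 0.00176). Iigp1 (Irga6) had 163, 149, 132 and 194 CPM in knockdown libraries, against 8.12, 35.5, 69.0 and 50.5 CPM in control libraries. It rose 3.91-fold (edgeR adjusted p = 0.0193), and it is the one GTPase whose call was lost when a single library was left out (adjusted p = 0.0609 without control replicate 4). Without control replicate 3 all 6 GTPases passed, against 18.1% of all genes tested. The class median log2 fold change was then 1.72, against 2.00 with that library. Of the 6 genes, 5 sit in 3 groups on the genome and Iigp1 lies on another chromosome, in the coordinates of the deposited table (GRCm39). Gbp5, Gbp7, Gbp3 and Gbp2 lie at chr3:142199739-142343769, Irgm1 lies with Tgtp1, Tgtp2 and Ifi47 at chr11:48752795-48987801, and Igtp with Irgm2 at chr11:58090382-58113608. All 10 of these named genes passed as higher, where 13.4% of all genes tested did. They are 5 GTPase members and 5 from a list of further interferon-stimulated genes. Other genes in the stretches were not examined.

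All 5 GTPase promoters that could be matched hold an interferon-stimulated response element. Those of Gbp2, Gbp3 and Irgm1 are shown as examples of a single match and of overlapping matches, and those of Gbp7 and Igtp are not printed. The sequences are from RefSeq on GRCm38.p6, 5′ to 3′ on the strand of the gene. The motif searched was GAAA, then NN (any bases), then GAAA, on both strands, in a window reaching 250 bases before the start of the gene and 50 after it. Matches are in capitals, which join where matches overlap, and each stretch is 70 bases long and ends before the start.
Gbp2 (chr3:142620559-142620628, plus strand): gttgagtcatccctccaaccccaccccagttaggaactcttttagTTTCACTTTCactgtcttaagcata
Gbp3 (chr3:142559960-142560029, plus strand): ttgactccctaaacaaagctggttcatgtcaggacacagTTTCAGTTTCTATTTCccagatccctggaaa
Irgm1 (chr11:48871421-48871490, minus strand): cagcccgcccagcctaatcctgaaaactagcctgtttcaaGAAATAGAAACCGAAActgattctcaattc
Promoter windows were matched for 36 of the 47 genes by symbol. Of these 36, 18 held the motif (50%), against 1079 of 27025 genes with a window (3.99%). Of the 20 matched genes that passed as higher, 11 held it, and of the 16 that did not pass, 7 held it. A match is a description of the letters and not a bound site.

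The interferon regulatory factors, which bind these elements, split by member, with 3 of 5 higher, against 13.4% of all genes tested. Irf8, a factor of myeloid cells and microglia, had 10.2, 23.2, 4.56 and 14.3 CPM in knockdown libraries, against 1.30, 1.32, 1.23 and 1.03 CPM in control libraries. Its fold was the largest of all 47 genes, at 10.7 (log2 fold change 3.42, SE 0.44, edgeR adjusted p = 0.00069), with controls nearly level and knockdown libraries spread widely. Irf1, which interferon-gamma induces, had 23.5, 54.4, 16.2 and 34.9 CPM in knockdown libraries, against 10.9, 6.08, 10.1 and 7.504 CPM in control libraries. Irf1 rose 3.73-fold (log2 fold change 1.90, SE 0.35, edgeR adjusted p = 0.00384), and for both factors knockdown replicate 3 was the highest library and replicate 4 the lowest of its group. Exons of Irf1 overlap those of a predicted gene over 20.0% of their length, where reads are counted for neither gene. Irf7, the factor that amplifies type I interferon production, had 84.5, 67.5, 66.8 and 80.7 CPM in knockdown libraries, against 32.8, 22.9, 37.2 and 29.5 CPM in control libraries. It rose 2.45-fold (log2 fold change 1.29, SE 0.17, edgeR adjusted p = 0.00069), with little spread in either group. Irf9, the DNA-binding part of the type I complex, had 56.1 to 79.2 CPM in knockdown libraries and 38.5 to 56.6 CPM in control libraries and did not pass (log2 fold change 0.47, SE 0.16, edgeR adjusted p = 0.0505), with knockdown replicate 3 just under the highest control. Irf3, which is activated by phosphorylation and is not itself strongly induced, had 16.3, 13.96, 12.2 and 14.6 CPM in knockdown libraries, against 44.6, 13.9, 17.7 and 18.9 CPM in control libraries. Its log2 fold change was -0.74 (edgeR adjusted p = 0.119), and -0.24 without control replicate 3 (adjusted p = 0.254). None of the 5 factors had the response element in its window, and 2 of 5 held a gamma-activated site, searched as TTCNNNGAA on both strands.
Irf1 (chr11:53769878-53769947, plus strand): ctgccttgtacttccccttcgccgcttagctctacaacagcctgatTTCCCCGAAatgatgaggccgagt
Irf8 (chr8:120736159-120736228, plus strand): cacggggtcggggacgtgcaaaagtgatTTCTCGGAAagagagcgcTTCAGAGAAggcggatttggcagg
Both stretches are shown as the windows of the factors with the largest folds, with the match in capitals. The site was held by 13 of the 36 matched genes (36.1%), against 9.55% of all genes with a window.

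**Figure D2:**
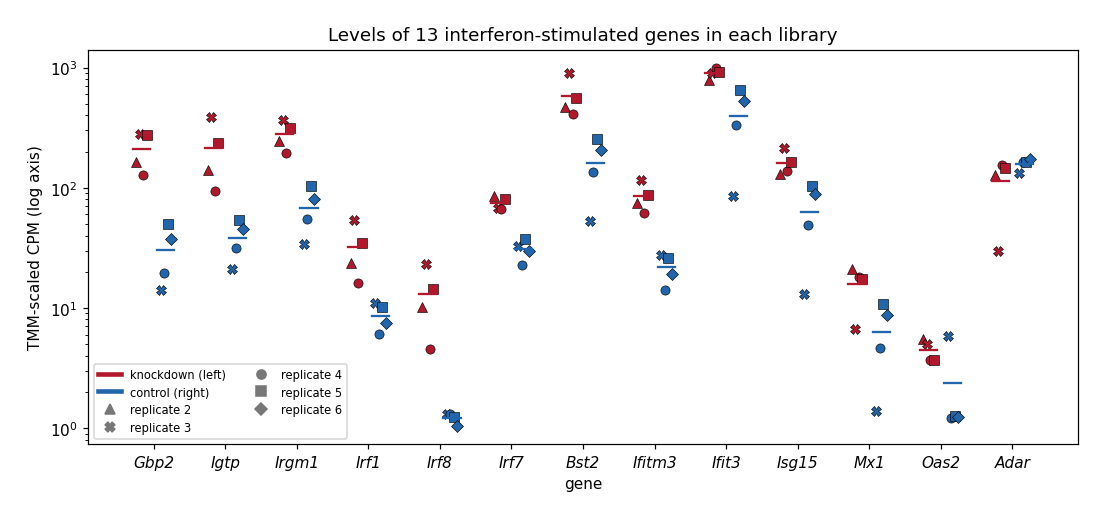
CPM (log axis) of 13 of the genes in each library, knockdown left and control right for each gene, with 1 symbol per replicate number and the group mean as a bar. Groups are apart for the GTPases, the factors Irf1, Irf8 and Irf7, Bst2, Ifitm3, Ifit3 and Isg15, control replicate 3 is the low point of Ifit3, Isg15 and Mx1 and the high point of Oas2, and knockdown replicate 3 is the low point of Mx1 and Adar.

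The sensors of viral nucleic acid were 3 of 5 higher with Trim25 counted among them, against 13.4% of all genes tested. Zbp1, a sensor of Z-form nucleic acid that can start necroptosis, had 17.3, 34.8, 11.01 and 22.8 CPM in knockdown libraries, against 4.01, 2.69, 5.64 and 3.61 CPM in control libraries. It rose 5.37-fold (log2 fold change 2.43, SE 0.36, edgeR adjusted p = 0.00125), and the groups were well apart. Ifih1, the MDA5 sensor of long double-stranded RNA, had 39.5, 27.7, 42.5 and 44.7 CPM in knockdown libraries, against 9.07, 15.7, 27.3 and 22.7 CPM in control libraries. Its rise of 2.06-fold (edgeR adjusted p = 0.0282) rested on a narrow gap, with knockdown replicate 3 just above control replicate 5, and the adjusted p reached 0.0873 without control replicate 4. It also did not pass without knockdown replicate 2, 4 or 5. Trim25, the ubiquitin ligase that activates RIG-I, rose 2.35-fold (edgeR adjusted p = 0.00324), at 46.2 to 63.0 CPM in knockdown libraries and 14.5 to 28.4 CPM in control libraries. Ddx58, which encodes RIG-I itself, did not pass and its groups overlapped, at 32.6 to 58.1 CPM in knockdown libraries and 15.9 to 44.1 CPM in control libraries (log2 fold change 0.67, edgeR adjusted p = 0.114). Dhx58, which encodes the related helicase LGP2, had 7.95 to 12.4 CPM in knockdown libraries and 7.37 to 10.8 CPM in control libraries (log2 fold change 0.25, edgeR adjusted p = 0.395).

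Of the 31 type I style effectors 14 rose, against 13.4% of all genes tested. Without control replicate 3, 22 of 31 passed, against 18.1% of all genes. The count was 9 when knockdown replicate 5 or control replicate 4 was left out. Of all genes, 1888 and 1684 were higher in those fits, against 2659 with all libraries. The class median log2 fold change was 1.14 with all libraries and 0.94 without control replicate 3. The effector with the largest fold was Ifitm3, a membrane protein that blocks the fusion of viruses with endosomes. It had 74.6, 116, 61.6 and 87.5 CPM in knockdown libraries, against 27.4, 14.03, 26.1 and 19.2 CPM in control libraries. Ifitm3 rose 3.90-fold (log2 fold change 1.97, SE 0.25, edgeR adjusted p = 0.000703), and its lowest knockdown library was more than 2-fold above its highest control. Bst2 (tetherin), which holds budding virions at the cell surface, had 466, 901, 414 and 554 CPM in knockdown libraries, against 53.1, 134, 255.2 and 204 CPM in control libraries. It rose 3.61-fold (log2 fold change 1.85, SE 0.45, edgeR adjusted p = 0.0144), with knockdown replicate 3 highest, as for 5 of the 6 GTPases. By RPKM, which also divides by the length of a gene so that genes can be compared, Bst2 had the highest mean of the 47 in knockdown libraries, at 646 RPKM, against 179 RPKM in control libraries. Ifit3 followed with 518 RPKM in knockdown libraries and 227 RPKM in control libraries.

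Other effectors that rose cover several steps of antiviral defence. Herc6, the main ligase that attaches Isg15 to proteins in mice, rose 3.12-fold, at 44.95 to 55.7 CPM in knockdown libraries and 5.16 to 24.9 CPM in control libraries (edgeR adjusted p = 0.0108). Parp9, an ADP-ribosyltransferase family member that pairs with Dtx3l, rose 3.04-fold, at 33.9 to 38.7 CPM in knockdown libraries and 7.34 to 16.5 CPM in control libraries (edgeR adjusted p = 0.00151). Its divergently placed partner Dtx3l did not pass (log2 fold change 0.94, edgeR adjusted p = 0.0565), with 38.8, 19.0, 40.2 and 46.2 CPM in knockdown libraries, against 9.51, 17.98, 25.5 and 22.1 CPM in control libraries. For Dtx3l knockdown replicate 3 lay among the controls and the other 3 knockdown libraries above them. Isg20, an exonuclease of RNA, rose 2.84-fold at a low level of 6.29 to 7.81 CPM in knockdown libraries and 1.65 to 3.53 CPM in control libraries (edgeR adjusted p = 0.00282). Trim30a, known in mice as a brake on NF-kB signalling, rose 2.76-fold (edgeR adjusted p = 0.00602). Oas1a, which makes the 2-5A messenger that activates RNase L, rose 2.74-fold, at 34.5 to 45.6 CPM in knockdown libraries and 7.04 to 23.8 CPM in control libraries (edgeR adjusted p = 0.0145). Oas1a shares 40.9% of its 100-base stretches with Oas1g, so its counts leave out reads that fit both. Mx2 and Parp14 rose 2.24-fold and 2.23-fold (edgeR adjusted p = 0.00482 and 0.00368). Their groups did not overlap.

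The remaining calls among the effectors were less steady. Rtp4, a chaperone of G protein-coupled receptors, rose 2.31-fold (edgeR adjusted p = 0.0223), and Xaf1, a pro-apoptotic protein, 2.20-fold (adjusted p = 0.0320). Ifit1, which binds viral RNA caps, rose 2.14-fold (adjusted p = 0.0469), and Lgals3bp, a secreted galectin-binding protein, 1.96-fold (adjusted p = 0.0481). Samhd1, which breaks down deoxynucleotides, rose 1.60-fold (adjusted p = 0.0230). Each of these 5 lost its call when any of several libraries was left out, control replicate 4 among them in every case, where the adjusted p was 0.0714, 0.0918, 0.128, 0.135 and 0.0758 in the order given. Lgals3bp is the called gene whose groups overlapped, with 316, 173, 353 and 348 CPM in knockdown libraries, against 79.0, 125, 216 and 189 CPM in control libraries. Rtp4 had 91.8 to 112 CPM in knockdown libraries and 17.1 to 64.1 CPM in control libraries, and Samhd1 had 45.2 to 61.9 CPM in knockdown libraries and 26.6 to 43.2 CPM in control libraries. Exons of Rtp4 and of Herc6 overlap predicted genes over 13.9% and 13.7% of their length.

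**Figure D3:**
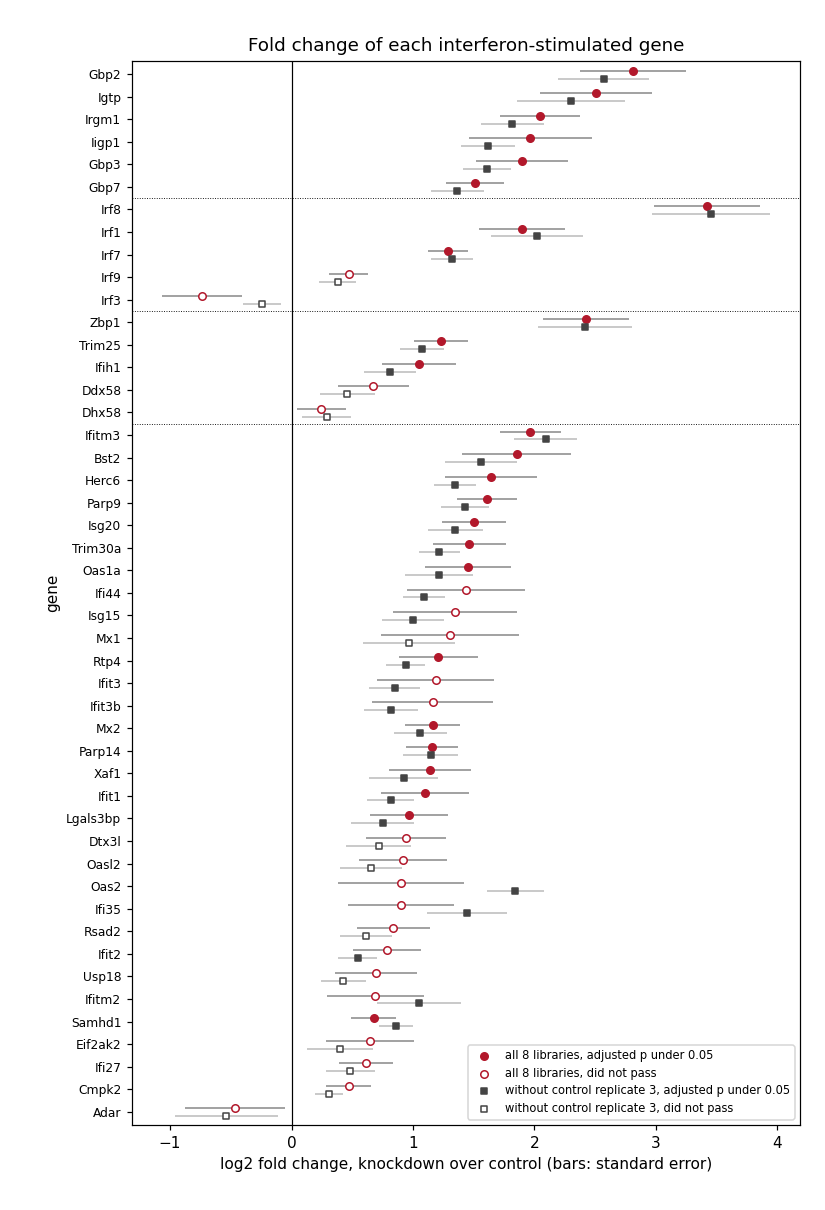
Log2 fold change (knockdown over control) and standard error of each gene, with all 8 libraries in red circles and without control replicate 3 in dark squares. Filled symbols passed at an adjusted p under 0.05. The squares of Oas2, Ifi35, Ifitm2, Samhd1, Ifitm3, Irf1, Irf7, Irf8, Dhx58 and Adar lie farther from 0 than their circles, and those of the other genes lie closer.

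The effectors that did not pass include abundant members of the class. Ifit3, an RNA-binding partner of Ifit1, had 791, 903, 999.8 and 918 CPM in knockdown libraries, against 84.5, 332, 646 and 523 CPM in control libraries. Every knockdown library was above every control, and the knockdown libraries agreed closely while the controls were spread widely. Its log2 fold change was 1.19 (SE 0.48, edgeR adjusted p = 0.0969), and 0.85 without control replicate 3 (adjusted p = 0.011). Its neighbour and near copy Ifit3b had 359, 297, 442 and 360.5 CPM in knockdown libraries, against 32.7, 135, 260.1 and 223 CPM in control libraries (log2 fold change 1.16, edgeR adjusted p = 0.113, and 0.0168 without control replicate 3). Ifit3 and Ifit3b share 31.7% and 27.4% of their 100-base stretches with each other, so their counts leave out reads that fit both. Isg15, the ubiquitin-like protein that is attached to other proteins in this response, had 129.8, 213, 137 and 163 CPM in knockdown libraries, against 13.01, 48.7, 103 and 88.5 CPM in control libraries. Its log2 fold change was 1.34 (SE 0.51, edgeR adjusted p = 0.0788), and 1.001 without control replicate 3 (adjusted p = 0.0132). Ifi44 and Ifit2 behaved likewise: groups apart, no call with all libraries (edgeR adjusted p = 0.0536 and 0.0608) and a call without control replicate 3 (0.00116 and 0.0243). Cmpk2, a mitochondrial nucleotide kinase beside Rsad2, also had groups apart, at 133 to 156 CPM in knockdown libraries and 67.7 to 127 CPM in control libraries, but passed neither with control replicate 3 (edgeR adjusted p = 0.0827) nor without it (0.0653). The 4 Ifit genes lie together at chr19:34528094-34627409 (GRCm39), and 1 of the 4, Ifit1, passed with all libraries, where 13.4% of all genes tested passed as higher.

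The windows of these effectors are shown for the response elements upstream of genes whose knockdown libraries all lay above the controls, in the same notation as for the GTPases.
Ifit1 (chr19:34640759-34640828, plus strand): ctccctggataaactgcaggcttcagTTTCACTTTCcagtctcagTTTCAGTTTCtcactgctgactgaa
Ifit3 (chr19:34583362-34583431, plus strand): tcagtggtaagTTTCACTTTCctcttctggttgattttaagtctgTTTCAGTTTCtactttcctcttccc
Ifit3b (chr19:34607758-34607827, plus strand): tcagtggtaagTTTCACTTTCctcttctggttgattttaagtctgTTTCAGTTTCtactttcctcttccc
Isg15 (chr4:156200860-156200929, minus strand): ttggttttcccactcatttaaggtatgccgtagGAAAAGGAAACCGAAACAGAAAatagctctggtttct
Oas1a (chr5:120907526-120907595, minus strand): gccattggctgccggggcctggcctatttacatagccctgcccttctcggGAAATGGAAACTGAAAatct
The stretches of Ifit3 and Ifit3b were identical over all 70 bases, Ifit1 held 2 separate matches, and Isg15 held 3 matches that overlap. Among the effectors with a window, 11 of 23 held the motif.

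Where control replicate 3 ran against the class it was the highest control. Oas2, an enzyme of the same family as Oas1a, had 5.45, 4.96, 3.70 and 3.67 CPM in knockdown libraries, against 5.82, 1.21, 1.26 and 1.23 CPM in control libraries. Its log2 fold change was 0.90 with control replicate 3 (edgeR adjusted p = 0.224) and 1.84 without it (adjusted p = 0.000432). Ifi35 and Ifitm2 were also called without that library (edgeR adjusted p = 0.0075 and 0.0385) and not with it (0.154 and 0.225). Ifi35 had 8.70 to 18.4 CPM in knockdown libraries and 2.71 to 12.51 CPM in control libraries. Exons of Ifi35 and Ifitm2 overlap predicted genes over 16.8% and 40.9% of their length, which limits what their counts hold.

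A further 8 effectors were not called with or without control replicate 3 and had positive log2 fold changes of between 0.47 for Cmpk2 and 1.30 for Mx1. Mx1, a GTPase that traps viral ribonucleoproteins, had 20.9, 6.70, 17.9 and 17.3 CPM in knockdown libraries, against 1.38, 4.59, 10.7 and 8.69 CPM in control libraries (edgeR adjusted p = 0.118). Knockdown replicate 3 was the low library there. It was likewise the lowest knockdown library for Eif2ak2 (PKR, which stops translation when it meets double-stranded RNA), Oasl2 and Rsad2 (viperin). Oasl2 had 407, 256.2, 470.4 and 478 CPM in knockdown libraries, against 87.8, 175, 325 and 266 CPM in control libraries (edgeR adjusted p = 0.0891). Rsad2 had 40.1 to 56.2 CPM in knockdown libraries and 13.8 to 42.4 CPM in control libraries (adjusted p = 0.0601). Usp18, which takes Isg15 off proteins and damps type I receptor signalling, had 73.9 to 92.9 CPM in knockdown libraries and 20.2 to 79.3 CPM in control libraries (adjusted p = 0.156). Ifi27 and Dtx3l complete the 8 (adjusted p = 0.0611 and 0.0565). Adar, which edits adenosine to inosine in double-stranded RNA, was the effector with a negative log2 fold change (-0.46, SE 0.41, edgeR adjusted p = 0.439). It had 127, 29.5, 155 and 146 CPM in knockdown libraries, against 134, 162, 163 and 172 CPM in control libraries. Knockdown replicate 3 was far below the other 7 libraries, and the other 3 knockdown libraries overlapped the controls. Exons of Adar overlap those of Chrnb2, a nicotinic receptor subunit gene, over 16.8% of their length.

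As a description, the knockdown libraries were ordered in another way in the GTPases than in the effectors, and the controls in the same way. Effectors summed to 4002, 4250.4, 4406 and 4488 CPM in knockdown libraries, against 911, 1755, 2999 and 2489 CPM in control libraries. The knockdown libraries were within 1.12-fold of each other, while the controls spread 3.29-fold. GTPases summed to 1027, 1553, 839 and 1336 CPM in knockdown libraries, against 115, 217, 417 and 319 CPM in control libraries. Here the knockdown libraries spread 1.85-fold and the controls 3.63-fold. The GTPase sum as a percentage of the effector sum was 25.7%, 36.5%, 19.0% and 29.8% in knockdown libraries, against 12.6%, 12.4%, 13.9% and 12.8% in control libraries. Its mean was 27.8% ± 7.34 in knockdown libraries and 12.9% ± 0.676 in control libraries (SD, n = 4 each). The groups did not overlap, the controls were within 1.12-fold of each other although their sums were not, and control replicate 3 was not apart from the other controls in this ratio. Ratios of group means were 4.45 for the GTPase sum and 2.10 for the effector sum, and 3.74 and 1.78 without control replicate 3. No test was made of these sums. Knockdown replicate 3 was the highest library for 17 of the 47 genes, among them 5 of the 6 GTPases, Irf1, Irf8, Zbp1 and Bst2, and the lowest knockdown library for 15, among them 11 effectors. Control replicate 5 was the highest control for 37 of the 47 and control replicate 3 the lowest for 34.

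**Figure D4:**
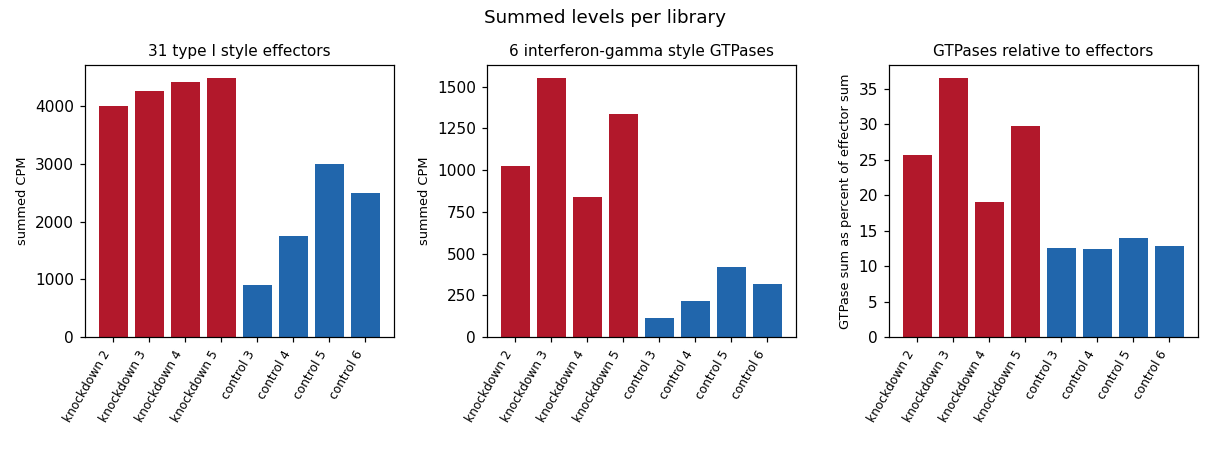
Summed CPM of the 31 effectors (left), of the 6 GTPases (middle) and the GTPase sum as a percentage of the effector sum (right) in each library, knockdown red and control blue, with bars from 0. Knockdown bars are level on the left (4002 to 4488 CPM) and uneven in the middle (839 to 1553 CPM), and on the right the controls are level at 12.4% to 13.9%.

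The messages of the interferons were at or near the limit of detection. Of 14 interferon genes, 9 had 0 reads in all 8 libraries, and none passed the filter on low counts. A count of 0 allows up to 3 reads, which is 0.0212 to 0.0626 CPM depending on the library, for counting error only. That limit takes each read as independent. Mates were counted singly, so 1 fragment can give 2 reads, and the limit is then higher. Ifng had 6 and 10 reads in knockdown replicates 2 and 3 and 0 in the other two, against 0 in all 4 control libraries. Ifnb1 had 12 reads in knockdown replicate 2 and 14 in control replicate 6 and 0 elsewhere, and 14 was also the highest count of any interferon gene. Ifnz, the interferon gene with reads in the most libraries, had 4, 8, 8 and 10 reads in knockdown libraries, against 0, 0, 4 and 14 reads in control libraries. Its groups overlapped. Ifna2 and Ifna4 had 2 reads each, in knockdown replicate 4 for Ifna2 and knockdown replicate 5 for Ifna4. At this depth no difference in an interferon message could be tested, and protein or a source outside the region was not measured. Receptors of all 3 types had reads, and 0 of 6 passed with control replicate 3 or without it. Ifnlr1, of the third type, was sparse, at 12 to 44 reads in knockdown libraries and 22 to 103 reads in control libraries. Without both libraries numbered 3, Ifnar1 and Ifnar2 passed as higher (edgeR adjusted p = 0.0303 and 0.0045) and Ifngr2 as lower (0.00485). In that fit 23.5% of all genes tested were higher. Ifnar1 had 29.1 to 37.2 CPM in knockdown libraries and 29.5 to 45.6 CPM in control libraries (log2 fold change 0.02, SE 0.17, edgeR adjusted p = 0.955, with a sign that changes between settings). Ifngr2 had 48.9 to 62.3 CPM in knockdown libraries and 46.8 to 66.3 CPM in control libraries (log2 fold change -0.15, SE 0.14, edgeR adjusted p = 0.464).

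Signalling genes were called higher more often than lower. Of 30 pathway genes tested outside the 47 (receptors, signal transducers, induction pathway and negative regulators), 9 passed as higher and 2 as lower, against 13.4% and 15.1% of all genes. Without control replicate 3 the counts were 13 higher and 2 lower, against 18.1% and 16.8% of all genes. The lower count is under the share of all genes in both fits. Jak2, the kinase of the interferon-gamma receptor, rose 1.69-fold, at 44.9 to 53.3 CPM in knockdown libraries and 25.8 to 33.9 CPM in control libraries (log2 fold change 0.76, SE 0.13, edgeR adjusted p = 0.00257). Jak1, the kinase common to both receptors, fell to 66.8 to 109 CPM in knockdown libraries, against 124 to 137 CPM in control libraries (log2 fold change -0.47, SE 0.16, edgeR adjusted p = 0.0463). Jak1 no longer passed when control replicate 3 was left out (edgeR adjusted p = 0.054) or when any of 5 other libraries was, up to an adjusted p of 0.104. Stat2, a factor of the type I complex, passed without control replicate 3 (edgeR adjusted p = 0.0338) and not with it (0.119).

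The feedback inhibitors Socs1 and Socs3, which block Janus kinases, both rose. Socs1 had 16.6, 32.5, 15.6 and 20.2 CPM in knockdown libraries, against 3.17, 6.97, 9.42 and 7.77 CPM in control libraries, a rise of 3.10-fold (edgeR adjusted p = 0.00657). Socs3, induced mainly through Stat3, had 16.2, 14.3, 10.4 and 16.6 CPM in knockdown libraries, against 3.33, 1.80, 3.87 and 3.54 CPM in control libraries, a rise of 4.57-fold (edgeR adjusted p = 0.000567). Neither gene's groups overlapped. The phosphatase gene Ptpn6, known from blood cells and microglia, rose 4.37-fold at a low level (edgeR adjusted p = 0.0139), and Irf2, a repressor at the same elements as Irf1, rose 1.32-fold (adjusted p = 0.0377). The Irf2 call was lost without any of 6 of the 8 libraries, up to an adjusted p of 0.127. Trim27 was the negative regulator that fell (log2 fold change -0.46, edgeR adjusted p = 0.0211), and it did not pass without knockdown replicate 4 or control replicate 6 (at most 0.0553). In the induction pathway, Tlr3, the endosomal sensor of double-stranded RNA, rose 4.00-fold, at 74.5 to 173 CPM in knockdown libraries and 12.6 to 44.1 CPM in control libraries (edgeR adjusted p = 0.00437). Its adaptor Ticam1 rose 1.81-fold, the Toll-like receptor adaptor Myd88 1.86-fold and Irf5 3.83-fold (edgeR adjusted p = 0.00607, 0.00243 and 0.0113). Mavs, the adaptor of RIG-I and MDA5, and the kinase Tbk1 did not pass (edgeR adjusted p = 0.642 and 0.735). Tmem173, which encodes the adaptor STING, the RNA sensor gene Tlr7 and the kinase gene Ikbke passed as higher without control replicate 3 (edgeR adjusted p = 0.00822, 0.0195 and 0.0279) and not with it (0.52, 0.0717 and 0.102). Pias1, an inhibitor of STAT proteins, passed as lower without that library (edgeR adjusted p = 0.00958) and not with it (0.136).

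Interferon-stimulated genes outside the 47 were also higher. Of 49 further genes, 30 rose and 0 fell, against 13.4% and 15.1% of all genes tested. Without control replicate 3, 42 of 49 passed as higher, against 18.1% of all genes. Their median log2 fold change was 1.43. Those with the 8 smallest p-values are named here. Cxcl9, a chemokine for T cells that interferon-gamma induces, had 5.60, 10.6, 5.01 and 9.81 CPM in knockdown libraries, against 1.08, 0.626, 1.64 and 1.40 CPM in control libraries, and rose 6.47-fold (edgeR adjusted p = 0.000973). Tgtp1, Gbp5 and Ifi47, further GTPases of the same families, rose 7.32-fold, 5.28-fold and 6.87-fold (edgeR adjusted p = 0.0012, 0.00155 and 0.00208). Tgtp1 shares 73.1% of its 100-base stretches with Tgtp2 and a predicted gene. Oas3, Ifi204, Tap1 and Ddx60 complete the 8, with rises of 7.86-fold, 6.33-fold, 2.86-fold and 2.61-fold (edgeR adjusted p = 0.00234, 0.00164, 0.00192 and 0.00277). For each of these 8 genes every knockdown library was above every control, a pattern that choosing by small p-values favours. Of all 49 further genes 32 showed it, against 17.1% of all genes tested.

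Markers of other cells moved with the groups. Shares of all genes tested to set beside these counts are 13.4% higher and 15.1% lower, and 18.1% and 16.8% without control replicate 3. The microglia markers rose in 20 of 24 cases (22 of 24 without control replicate 3), and their summed level was 328, 298, 132 and 163 CPM in knockdown libraries, against 92.6, 55.6, 65.8 and 63.8 CPM in control libraries. No microglia marker was at 0 in every library of a group. Knockdown replicate 4 was the lowest of its group in this sum, as it was for Irf8, Irf1 and 5 of the 6 GTPases, while replicate 2 was the highest in the sum and replicate 3 for Irf8, Irf1 and 5 of the 6 GTPases. Within bulk RNA, more cells of a type and more RNA per cell cannot be told apart, and the same holds for fewer cells and less RNA. Astrocyte markers summed to 12971 to 18725 CPM in knockdown libraries and 2023 to 8394 CPM in control libraries, with the lowest control again replicate 3, and 4 of 18 rose (11 of 18 without control replicate 3). T and NK cell markers summed to 11.7 to 16.7 CPM in knockdown libraries and 4.57 to 8.004 CPM in control libraries, and 1 of the 7 tested rose, a share near that of all genes. The log2 fold change was positive for 4 of the 7 and negative for 3, with a median of 0.016. Without control replicate 3 the filter asks for fewer libraries, and 4 of 8 tested rose, Cd3d among them. The gene called with all libraries was Trac, the constant part of a T cell receptor chain, which had 9.43 to 12.5 CPM in knockdown libraries and 1.002 to 6.40 CPM in control libraries. Cd3d, a subunit of the T cell receptor complex, had 78, 84, 8 and 16 reads in knockdown libraries, against 2, 0, 0 and 2 reads in control libraries. With all libraries Cd3d did not pass the filter on low counts. Without control replicate 3 it passed through its knockdown reads alone, so its call there carries no weight of its own. Ncr1, an NK cell gene, had 0 reads everywhere. Monocyte and neutrophil markers summed to 2.21 to 6.84 CPM in knockdown libraries and 1.10 to 1.65 CPM in control libraries, with Ly6g at 0 in all libraries. Of these markers 1 of the 4 tested was higher, and 3 of 6 without control replicate 3, where the filter let in more genes. B cell markers overlapped between groups, at 36.0 to 58.0 CPM in knockdown libraries and 48.8 to 63.0 CPM in control libraries, with 1 of 5 higher and 1 lower (2 higher and 1 lower without control replicate 3). Oligodendrocyte markers were higher for 6 of 16 (8 of 16 without control replicate 3). Endothelial and mural markers passed for 0 of 16 and 0 of 10 with all libraries (edgeR) and for 10 and 5 without control replicate 3, all higher. Dopamine neuron markers were lower for 12 of 14 and higher for 1. Their sums overlapped between groups, at 1840 to 2494 CPM in knockdown libraries and 2286 to 4203 CPM in control libraries. Pan-neuronal markers were lower for 11 of 12, at 3807 to 4675 CPM in knockdown libraries and 9975 to 10679 CPM in control libraries. What part these marker differences have in the levels of the interferon-stimulated genes was not tested.

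**Figure D5:**
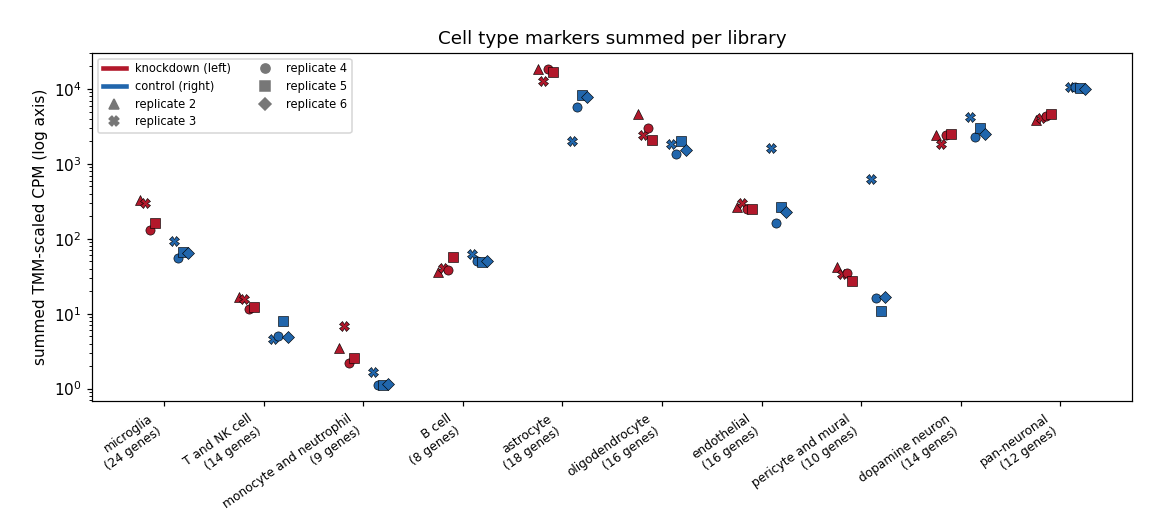
Summed CPM (log axis) of 10 lists of cell type markers in each library, knockdown left and control right, with 1 symbol per replicate number. Microglia, T and NK cell, monocyte and neutrophil, astrocyte and oligodendrocyte sums do not overlap and are higher in knockdown. Pan-neuronal sums do not overlap and are lower. B cell, dopamine neuron, endothelial and mural sums overlap between groups. Control replicate 3 stands far above the other controls in the endothelial and mural lists.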

How the data were processed

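Ribosome-associated RNA was sequenced in 8 libraries, 4 per genotype. The authors deposited raw read counts per gene, made per the file headers with featureCounts 2.0.3 on GENCODE M30, with no strand option, mates counted singly, and reads in several places or several genes left out. Per the submitters' processing notes, FastQC, Trimmomatic and STAR were used. The labels name the build mm10, while the table's annotation belongs to GRCm39, so table coordinates are given as GRCm39. Of 56691 gene IDs, 52073 were matched to a symbol by ID. Counts were tested with edgeR 4.0.16 (R 4.3.3, limma 3.58.1), using filterByExpr, TMM scaling and a robust quasi-likelihood F test with Benjamini-Hochberg adjustment over 19912 genes at a threshold of 0.05. Statistics were tested on simulated data with the same spread for all genes, few changed genes and no library apart from its group. That test does not cover a library like control replicate 3. The depth of 49802305 to 147747191 reads puts 3 counts at 0.0212 to 0.0626 CPM, and floors cover counting error only. They take each count as independent, although mates were counted singly. Shared sequence was measured in 100-base stretches, and promoters came from RefSeq (GRCm38.p6). Every one of the 47 genes is named, with all pathway genes that passed, the 8 further genes of smallest p, and marker lists by sum. The 47 genes, the other lists and the tests were chosen with earlier results of these data known. Alternatives were RLE and upper quartile scaling, 2 filters, DESeq2 1.42.0, limma-voom, a fit without robust estimation, a replicate block, leaving out libraries, and thresholds of 0.01 and 0.1. The values of 1 pathway gene are not reported here.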

Additional observations from a re-analysis of the deposited data

Results flagged for a closer look

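Among 212 sets of 4 libraries, 21 held a library far from the other 3 of its group. The cutoff is made to flag about 1 in 20 independent sets of normally distributed values. These sets come from the same 8 libraries and hold related genes, so the count cannot be set against that rate. Control replicate 3 was that library in 14 and knockdown replicate 3 in 5. Control replicate 3 was high for Irf3 at 44.6 CPM (other controls 13.9 to 18.9), Oas2 at 5.82 CPM (1.21 to 1.26) and Samhd1 at 43.2 CPM (26.6 to 29.3). It was also high for Ifnar1 at 45.6 CPM, Il10rb at 10.8 CPM, Tyk2 at 16.7 CPM, Tmem173 at 2.41 CPM, Tlr7 at 0.541 CPM, Aim2 at 3.17 CPM and Ifi204 at 1.06 CPM. Marker sums that were high there were the endothelial at 1650 CPM, the mural at 621 CPM, the B cell at 63.0 CPM and the monocyte and neutrophil at 1.65 CPM. Knockdown replicate 3 was low for Ifnar1 at 29.1 CPM and Tlr9 at 0.145 CPM, high for Tbk1 at 39.1 CPM and Myd88 at 22.1 CPM, and low in the dopamine neuron sum at 1840 CPM (other knockdown libraries 2427 to 2494). Ifi44 was high in knockdown replicate 4 at 105 CPM, and the T and NK cell sum in control replicate 5 at 8.004 CPM.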

How the results depend on the processing

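No gene of the 47 changed sign under any alternative. Of the 26 called, 11 were called under all 17 alternatives that keep the threshold (Ifitm3, Irf1, Irf7, Irf8, Isg20, Gbp2, Irgm1, Zbp1, Parp9, Parp14 and Trim25), and 19 without each single library. The cause was not tested for any count that moved. The count of the 47 that were higher was 26. It was 17 with no filter on low counts, 44 with limma-voom, 40 without both libraries numbered 3, 16 at a threshold of 0.01, and 19 to 34 on leaving out 1 library. Effectors (14) gave 7 with no filter, 23 with DESeq2, 29 with limma-voom, 26 without both libraries numbered 3, 6 at 0.01, 23 at 0.1, and 9 (without knockdown replicate 5 or control replicate 4) to 22 (without control replicate 3) on leaving out 1 library. Further interferon-stimulated genes (30) gave 19 with no filter, 16 at 0.01 and 20 to 42 on leaving out 1 library. Pathway genes (9 higher, 2 lower) gave 15 higher and 4 lower both with limma-voom and without both libraries numbered 3. In both of these fits the receptor genes Ifnar1 and Ifnar2 were among those higher and Ifngr2 among those lower. The lower count of pathway genes was 0 with upper quartile scaling and at 0.01, and 0 (without control replicate 6) to 2 on leaving out 1 library. Genes changed in all (5668) numbered 10218 with limma-voom, 9565 without both libraries numbered 3 and 2679 at 0.01. The counts of the lists above are to be set beside all genes called higher (2659). These numbered 2032 with no filter, 3618 with DESeq2, 5251 with limma-voom and 4805 without both libraries numbered 3. They numbered 1116 at 0.01, 3577 at 0.1 and 1684 to 3723 on leaving out 1 library.

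The groups share replicate numbers 3, 4 and 5, but same-numbered libraries deviated together only weakly (r = 0.107, 0.0769 and 0.0461). Differently numbered libraries had r of -0.105 to 0.0869, a range that holds the values for numbers 4 and 5. No label says what a number marks. Under a replicate block, 1258 genes changed in all, 480 of them higher and 778 lower. Knockdown replicate 2 and control replicate 6 have no partner number. That fit therefore takes the group difference from the libraries numbered 3, 4 and 5 alone, and fewer calls can follow from that. Of the 47 genes 14 passed, with 6 effectors and 2 GTPases among them. Further interferon-stimulated genes gave 13, and pathway genes 2 higher and 0 lower. Sign changes were found for pathway genes that were not called. Ifnar1 (log2 fold change 0.02) was -0.0188 with no filter, -0.0429 under the block and -0.0756 to 0.18 on leaving out 1 library. Il10rb (0.23) was -0.0698 (without knockdown replicate 3) to 0.81 on leaving out 1 library. Tyk2 (-0.32) was 0.32 with limma-voom, 0.41 without both libraries numbered 3 and -0.62 to 0.17 (without control replicate 3) on leaving out 1 library. Tbk1 (-0.06) was 0.0305 with upper quartile scaling, and Tlr9 (0.37) was -0.26 under the block. Aim2 (0.03) was -0.00284 with no filter, -0.59 under the block and -0.52 to 0.57 on leaving out 1 library. With 4 libraries per group, small differences could not be told from the spread.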
